A study of Homo sapiens with 26 samples.

Results

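BCR and ABL1 are the genes broken by the translocation between chromosomes 9 and 22 that KBM7, a human chronic myeloid leukaemia line with a nearly haploid genome, carries. They were examined here through 80 of the 30376 bins of 100 kb in the deposited table, 40 on each derivative chromosome. The bins were chosen by position: 21600001 to 25600000 on the derivative written 22:9, around a break near 23600000, and 131600001 to 135600000 on the derivative written 9:22, around a break near 133600000. All positions below are along the derivatives as the table numbers them (hg19 bins). Signal was present in some cell in 77 of the 80 bins, 38 on 22:9 and 39 on 9:22, and these were used.

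All 26 samples form 1 group: single cells of KBM7 clone 5-8, labelled haploid (1N) and Dam alone. Every cell received 0.5 nM Shield1 for 15 h, which switched on Dam methylation, and came from the smallest 2% of cells, sorted on both Fucci markers of the cell cycle. Dam is a bacterial enzyme that methylates adenine within GATC, and methylated fragments were recovered by digestion and PCR with 21 extension steps. Unfused Dam marks chromatin that it can reach, and it commonly serves as the background for a fusion protein such as Dam-lamin B1, which the series title names. Because every cell comes from 1 clone under 1 condition, SDs describe how cells of that clone scatter, and p-values are not given.

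BCR encodes a signalling protein, and ABL1 encodes a tyrosine kinase that is not tied to a receptor. The translocation joins the 5′ part of BCR to the 3′ part of ABL1 on the shortened chromosome 22, the Philadelphia chromosome, and the fusion protein is a tyrosine kinase that is constantly active and drives chronic myeloid leukaemia. The reciprocal joint, the 5′ part of ABL1 next to the 3′ part of BCR, lies on the derivative of chromosome 9. Both genes are read towards higher coordinates in RefSeq (GRCh38.p14). They are 137529 bases (BCR) and 174633 bases (ABL1) long there, so each is longer than 1 bin.

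The table does not state the bases of the break. It does show how the derivatives were put together: they are the only 2 of its 23 chromosomes that end on a whole bin, and their 1615 and 312 bins add up to the 1927 bins that hg19 chromosomes 9 and 22 fill, so whole bins were joined. The bin numbers allow a cut after base 23600000 of chromosome 22 with one after base 133700000 of chromosome 9. They also allow both cuts moved by the same number of bins, such as 1 bin lower (23500000 with 133600000) or higher (23700000 with 133800000). The rounded break positions of 23600000 and 133600000 cannot both be edges of the joint. The junction bins were taken as those that start there, 23600001 to 23700000 on 22:9 and 133600001 to 133700000 on 9:22, and the bins on both sides of each are given as well. With chromosome 22 cut after base 23600000, the bin before the junction bin on 22:9 is the last bin of chromosome 22 and the junction bin is the first of chromosome 9. The junction bin on 9:22 is then the last bin of chromosome 9. With both cuts 1 bin lower, the bin before the junction bin on 22:9 would instead be the first of chromosome 9. These readings could not be told apart here.

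Since Dam can mark only GATC, the 250 bases before the RefSeq start of each gene are shown, on the plus strand of GRCh38.p14 chromosomes 22 (BCR) and 9 (ABL1), with GATC in capitals.
BCR: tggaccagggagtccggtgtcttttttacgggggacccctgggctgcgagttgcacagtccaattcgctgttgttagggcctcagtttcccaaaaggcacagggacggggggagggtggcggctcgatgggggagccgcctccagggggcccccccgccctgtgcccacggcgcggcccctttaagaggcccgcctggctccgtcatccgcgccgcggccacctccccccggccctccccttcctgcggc
ABL1: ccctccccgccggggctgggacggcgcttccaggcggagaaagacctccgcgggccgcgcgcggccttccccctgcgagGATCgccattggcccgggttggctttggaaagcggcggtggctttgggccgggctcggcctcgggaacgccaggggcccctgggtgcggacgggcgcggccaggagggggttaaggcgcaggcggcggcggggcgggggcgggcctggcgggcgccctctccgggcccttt
The BCR window holds 0 GATC and the ABL1 window 1, at base 80. GATC reads the same on both strands, and 35.8% of 35116 RefSeq windows of this length hold at least 1. Both windows are rich in G and C, at 70.8% for BCR and 78.4% for ABL1, against a median of 58% over all such windows. The ABL1 entry is that of a downstream first exon, 70.0% along the gene from its outermost start, and the derivative on which it lies is not given by the table. The signal of a 100 kb bin comes from GATC sites over its whole length, of which these windows are a small part.

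The deposited value of a bin in a cell is a ratio of observed over expected signal. It was divided by the cell's mean over all used bins, and this is called the level, so 1 is the average bin of that cell. Whole counts behind the ratios totalled 20182 to 178941 per cell, or 0.766 to 6.80 per used bin, so 1 bin in 1 cell carries a large counting error. Of 325 pairs of cells 0 were identical, and the chi-square per degree of freedom of their counts over 1 Mb windows was at least 1.69, where counting noise gives about 1. Cell 22 had the lowest share of used bins above 0, 34.3% against a median of 62.3%, and results around the junctions that it moved are also given without it.

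The strongest bin of both windows lay next to the junction bin of 22:9, the Philadelphia chromosome. The bin before the junction bin on 22:9, 23500001 to 23600000, had a lowest level of 1.07 (cell 17), a median of 4.22 and a highest of 11.1 (cell 13). No cell was at 0 there, and every cell lay above its own mean. The mean level was 4.54 ± 2.16 (SD, n = 26 cells), from 259 counts, with 2 to 19 counts per cell. Pooled over cells, the level was 4.09 with an exact 95% Poisson interval from 3.61 to 4.62, which covers counting error only. With the cut after base 23600000 this bin is chromosome 22 sequence that ends within BCR, on the side from which the fusion gene is read.

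Positive is used for a bin whose deposited ratio in a cell was 1 or more. The bin 23500001 to 23600000 was positive in all 26 cells, which held for 24 of the 26331 used bins (0.0911%). Of those 24, 9 had a higher mean level. By mean level this bin ranked 55 among all 26331 used bins. Among the 25428 bins with an expectation of at least 0.5 times the median, it ranked 22. Its own expectation was 1.10 times the median. Without cell 22, where it stood at 7.76, the mean was 4.41, and with every cell thinned to 20000 counts it was 4.48. Across the settings tried, its level ran from 3.65, after division by the derivative's mean, to 4.59, without bins of low expectation. The next lowest level was that without the 6 cells of lowest coverage.

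The bins around it on 22:9 were lower. The 5 bins that lead up to it, 23000001 to 23500000, had a joint level of 1.01 ± 0.568, against which the bin was 4.48-fold higher and higher in 25 of 26 cells. Directly before it, the bin at 23400001 to 23500000 had a mean of 1.28 ± 1.40 and was at 0 in 8 cells. Directly after it, the junction bin was lower in all 26 cells, and the fold of the bin before over the junction bin was 3.61. In the profile along both derivatives the next highest means are 4.03 at 132700001 on 9:22, 3.13 at 131600001 on 9:22 and 3.06 at 21900001 on 22:9, none of them next to a junction bin.

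**Figure D1:**
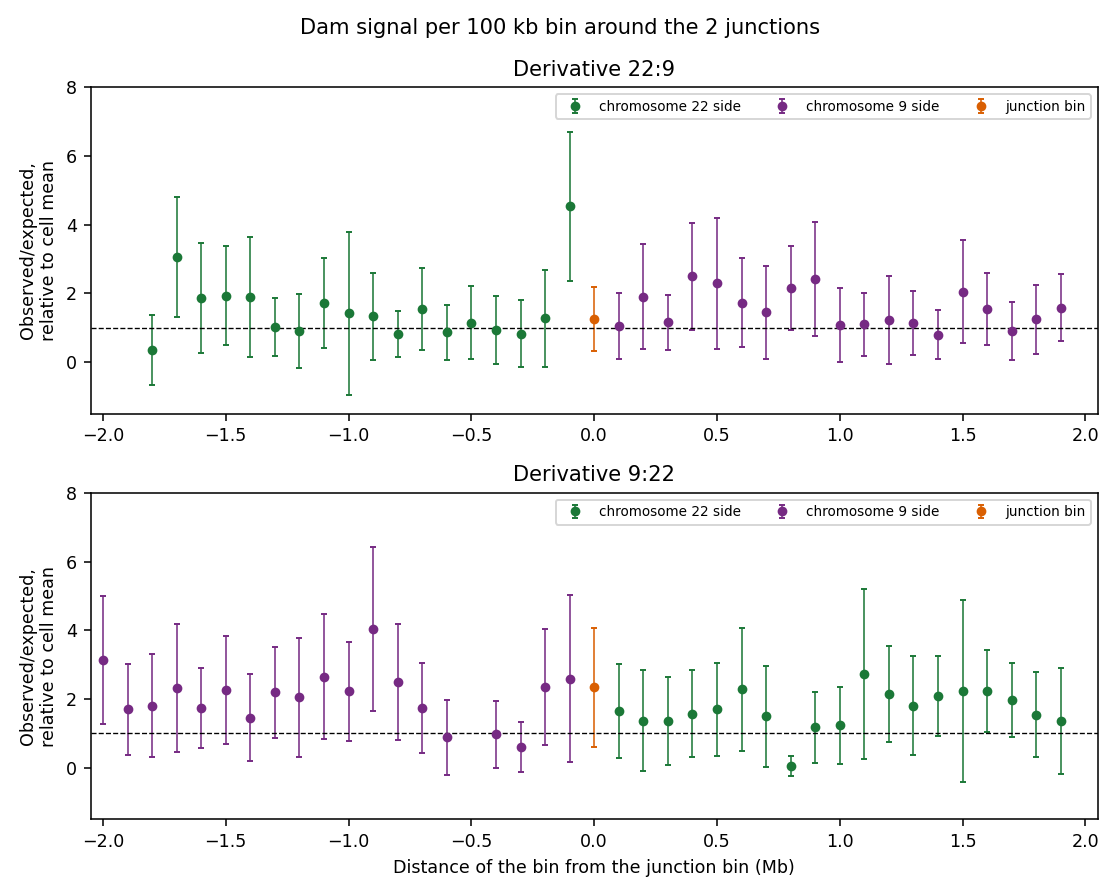
Mean level (observed over expected, relative to the cell mean) of each 100 kb bin against its distance from the junction bin in Mb, for 22:9 (top) and 9:22 (bottom); points are means of 26 cells and bars are SDs between cells, which reach below 0 only as drawn, and the dashed line marks a level of 1. On 22:9 the bin before the junction bin is at 4.54 while the junction bin is at 1.26, and on 9:22 the 3 bins up to and including the junction bin are between 2.35 and 2.60.

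The junction bin of 22:9, 23600001 to 23700000, was a little above the average bin. Its levels ran from 0 in 5 cells through a median of 1.21 to 3.75 in cell 8. The mean was 1.26 ± 0.943 (SD, n = 26 cells), from 86 counts, and 16 cells lay above 1. Pooled, the level was 1.30 (95% Poisson interval 1.04 to 1.61). It exceeded 73.4% of the 25428 bins. The flanks of the junction bin, all other used bins of the window, had a mean level of 1.54 ± 0.319, and the junction bin was lower than they were in 19 of 26 cells. That difference of means, -0.281, was smaller than its SD between cells, 0.827. With the cut after base 23600000 of chromosome 22 it is the first bin of chromosome 9, at the ABL1 end of the joint.

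The bin after it on 22:9, 23700001 to 23800000, had levels from 0 in 8 cells through a median of 0.913 to 3.30 in cell 10. Its mean of 1.05 ± 0.956 (55 counts) differed from that of the junction bin by less than either SD. Along 22:9, 1 bin far above the cell mean was thus followed by 2 bins much closer to that mean.

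On the reciprocal derivative the signal was spread over several bins. The junction bin of 9:22, 133600001 to 133700000, had levels from 0 in 2 cells through a median of 1.87 to 6.56 in cell 21. The mean was 2.35 ± 1.73 (SD, n = 26 cells), from 122 counts, and 21 cells lay above 1. Pooled, the level was 2.27 (1.88 to 2.71), and the bin exceeded 95.1% of bins. Its flanks were at 1.87 ± 0.424 and the junction bin was above them in 15 of 26 cells, a difference of 0.473 ± 1.87 that is smaller than the spread between cells. Without cell 22 the junction bin was above its flanks in 14 of 25 cells, and the difference was 0.271 ± 1.60.

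The bin before it, 133500001 to 133600000, had a mean level of 2.60 ± 2.43 and ran from 0 in 3 cells to 11.2 in cell 22. Without cell 22 its mean was 2.25 ± 1.71, and that of the junction bin was 2.18 ± 1.54 (cell 22 at 6.52). The bin before that, 133400001 to 133500000, was at 2.36 ± 1.69 and at 0 in 1 cell. These 3 bins, which with chromosome 9 cut after base 133700000 are its last on 9:22 and end within ABL1, did not differ from each other beyond their spread. The bin after the junction bin, 133700001 to 133800000, was at 1.65 ± 1.38 with 4 cells at 0. It was lower than the junction bin in 14 cells, higher in 11 and tied in 1.

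Between the derivatives, the junction bin of 22:9 was lower than that of 9:22 in 20 of 26 cells, higher in 5 and tied in 1. Their means of 1.26 and 2.35 gave a log2 ratio of -0.90, and the mean difference of -1.09 was smaller than its SD of 1.78. The order turned round for the bins before them, 4.54 on 22:9 and 2.60 on 9:22. The comparison thus depends on which bin is called the junction bin. The 6 bins are shown cell by cell in the plot of single cells.

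**Figure D2:**
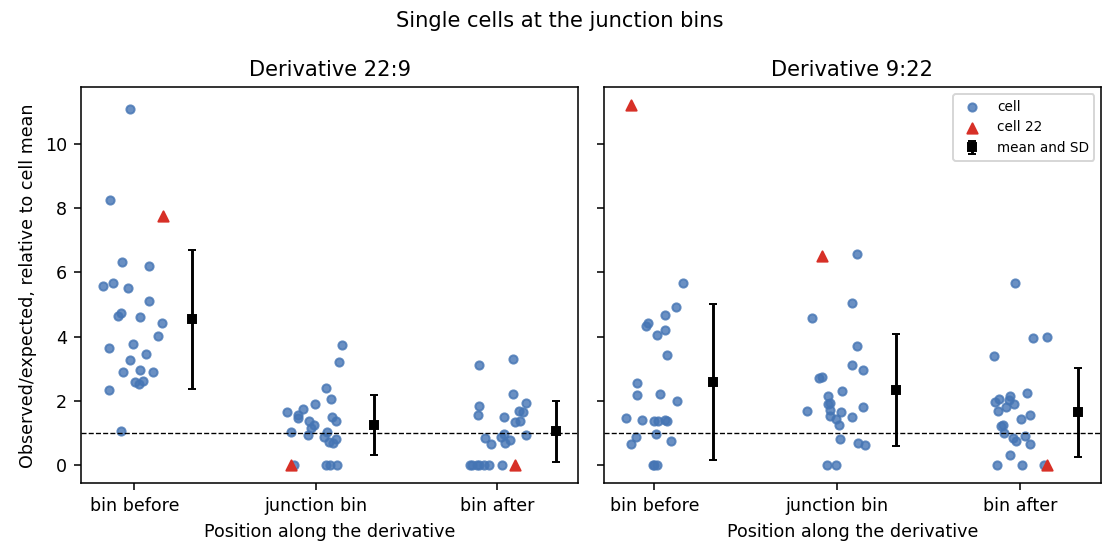
Level of the bin before, the junction bin and the bin after along each derivative in 26 cells (circles; cell 22 as a triangle), with the mean and SD beside them; the dashed line marks a level of 1. All cells lie above 1 in the bin before the junction bin of 22:9, whereas each of the other 5 bins has cells at 0.

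Spread between cells was measured as the variance of the recovered counts over the variance that counting at each cell's depth gives, so 1 is counting noise. The junction bin of 22:9 had 1.23, above 22.7% of the 25428 bins, and that of 9:22 had 1.89, above 68.3%. By the coefficient of variation of the levels they stood above 12.3% and 11.1% of bins, so the order of the 2 junction bins by spread depends on the measure. The strong bin before the junction bin on 22:9 had 2.11, above 77.7%. By the coefficient of variation, 0.477, the same bin stood above only 0.153% of bins. The bin before the junction bin on 9:22 had 2.95, above 93.8%, with cell 22 at 9 of its 133 counts, and without cell 22 it had 2.11, above 80.9%. The median bin was at 1.63 in the 22:9 window and at 1.61 in the 9:22 window, against 1.60 over the 25428 bins, of which 5% lay below 0.908 and 5% above 3.09.

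Both windows as a whole were above the cell mean. The 22:9 window had a level of 1.53 ± 0.324 (SD, n = 26 cells), from 0.500 in cell 22 through a median of 1.57 to 2.26 in cell 8, and lay above 1 in 25 cells. The 9:22 window had 1.89 ± 0.405, from 1.10 in cell 23 through a median of 1.84 to 2.60 in cell 17, and lay above 1 in all 26. All other used bins averaged 0.998. Among 2554 overlapping windows of 4 Mb with at least 30 used bins, taken every 1 Mb, 89.9% were below the 22:9 window and 96.9% below the 9:22 window. Against the rest of its own derivative, the 22:9 window was higher in 24 of 26 cells (1.53 against 1.24 ± 0.259) and the 9:22 window in all 26 (1.89 against 1.14 ± 0.212). The 22:9 window was below the 9:22 window in 23 cells (log2 ratio -0.30). GC content, the density of GATC and DNA copy number of the windows were not analysed, and their part in these levels was not tested.

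Of the 77 used bins 18 were positive in at least 21 of the 26 cells (80%), against 5.61% of all used bins. They were 13 of the 39 bins on 9:22 (33.3%) and 5 of the 38 on 22:9 (13.2%). The junction bin of 9:22 was 1 of them, with 21 cells, and that of 22:9 was not, with 15. Only 2 bins were positive in at most 5 cells (20%), where 33.5% of all used bins were. They were 21800001 to 21900000 on 22:9 and 134400001 to 134500000 on 9:22, with 3 counts and 1 count in all. Their expectations were 0.0886 and 0.329 times the median. Counts were recovered as the smallest whole numbers that fit, so these counts and expectations are lower bounds.

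**Figure D3:**
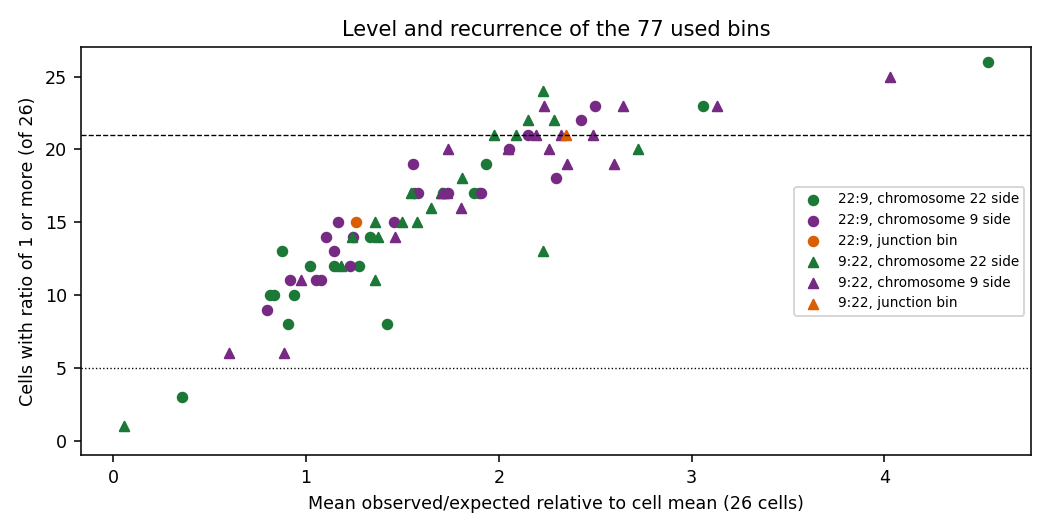
Number of cells (of 26) in which a bin has a ratio of 1 or more against its mean level, for the 77 used bins, with circles for 22:9 and triangles for 9:22 and colours for side and junction bin; the dashed line marks 21 cells and the dotted line 5. The bin before the junction bin of 22:9 is at the top right with 26 cells and a mean of 4.54, next to the bin of 9:22 at 132700001 with 25 cells and 4.03.

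The 4 sides of the 2 joints, about 2 Mb each, had levels above the cell mean. The chromosome 9 side of 9:22 was the highest at this length, but not over 0.5 Mb, where it was at 1.63, against 1.75 for the chromosome 22 side and 1.66 for the chromosome 9 side of 22:9 and 1.49 for the chromosome 22 side of 9:22. On 22:9 the chromosome 22 side (18 used bins) stood at 1.53 ± 0.327, from 0.622 in cell 22 to 2.23 in cell 13, and the chromosome 9 side (19 bins) at 1.55 ± 0.403, from 0.411 in cell 22 to 2.51 in cell 8. The 2 sides of 22:9 did not differ beyond their spread: the log2 ratio of the chromosome 22 side over the chromosome 9 side was -0.019, and its sign differed between settings. The chromosome 22 side owed part of its level to 1 bin. Without the bins next to the junction bin it stood at 1.35, against 1.57 for the chromosome 9 side (log2 ratio -0.22). With 1 Mb flanks the log2 ratio was -0.33.

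On 9:22 the chromosome 22 side (19 bins) stood at 1.69 ± 0.522, from 0.474 in cell 23 to 2.57 in cell 15, and the chromosome 9 side (19 bins) at 2.06 ± 0.578, from 1.11 in cell 2 to 3.31 in cell 7. The chromosome 22 side was lower in 18 of 26 cells, with a log2 ratio of -0.29 and a mean difference of -0.378 ± 0.703. Pooled over cells, with exact 95% Poisson intervals, the chromosome 22 side was at 1.79 (1.71 to 1.89) and the chromosome 9 side at 2.06 (1.98 to 2.15). These intervals cover counting error only, not the spread between cells. Chromosome 22 sequence was lower on 22:9 than on 9:22 in 17 of 26 cells (log2 ratio -0.14), and chromosome 9 sequence in 21 of 26 (log2 ratio -0.42). Both orders depended on the length taken. Over 0.5 Mb chromosome 22 sequence was at 1.75 on 22:9 and 1.49 on 9:22, and over 1 Mb at 1.47 and 1.41. For chromosome 9 sequence the order turned only over 0.5 Mb, at 1.66 on 22:9 and 1.63 on 9:22. Over 1 Mb it was at 1.86 and 1.99, in the same order as over 2 Mb. The stretches compared are different parts of each chromosome.

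**Figure D4:**
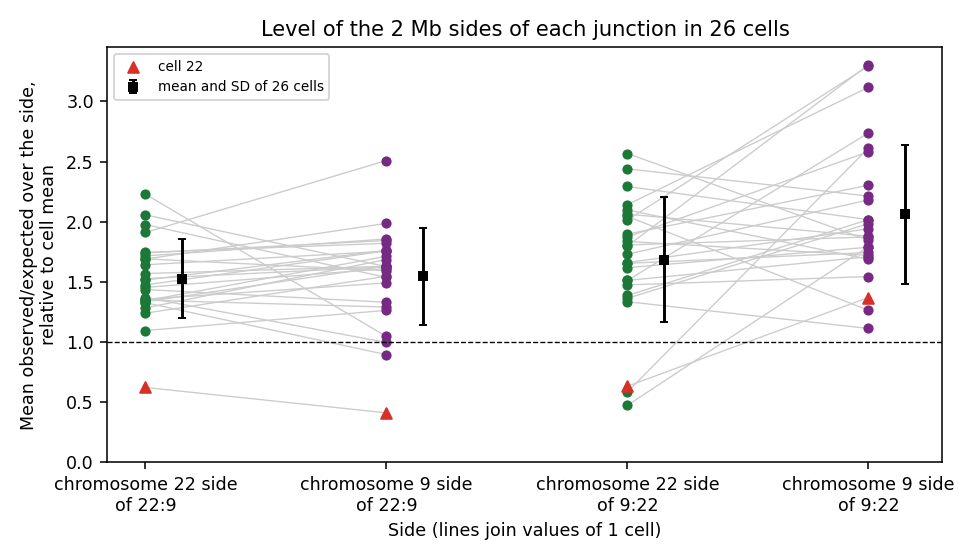
Level of the chromosome 22 side and the chromosome 9 side of each joint in 26 cells, with a line joining the 2 values of a cell, the mean and SD as squares, cell 22 as a triangle and the dashed line at 1. All cells are above 1 only on the chromosome 9 side of 9:22, and cell 22 is the lowest on both sides of 22:9.

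Within the sides, strong bins alternated with weak ones. On the chromosome 22 side of 22:9 the bin at 21900001 to 22000000 came next after the strong bin, at 3.06 ± 1.75 and positive in 23 cells, followed by the bin at 22100001 to 22200000, at 1.94 ± 1.43. The lowest were 21800001 to 21900000 at 0.355 ± 1.01, 22800001 to 22900000 at 0.813 ± 0.674 and 23300001 to 23400000 at 0.831 ± 0.969. The last of these, which lies 2 bins before the strong bin, was at 0 in 12 cells. On the chromosome 9 side of 22:9, the 3 highest bins started at 24000001 (2.50 ± 1.55), 24500001 (2.43 ± 1.65) and 24100001 (2.30 ± 1.91). The 3 lowest started at 25000001 (0.797 ± 0.711), 25300001 (0.914 ± 0.843) and 23700001 (1.05 ± 0.956).

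On the chromosome 9 side of 9:22 the highest bin, 132700001 to 132800000, was at 4.03 ± 2.39 and positive in 25 cells, followed by those that start at 131600001 (3.13 ± 1.87) and 132500001 (2.65 ± 1.82). A weak stretch lay closer to the joint: the bins that start at 133000001 (0.886 ± 1.09), 133200001 (0.976 ± 0.980) and 133300001 (0.599 ± 0.734) were the 3 lowest, and the bin at 133100001 to 133200000 was 0 in all cells and was not used. The 3 stronger bins up to the junction bin came directly after it. On the chromosome 22 side of 9:22 the highest bins started at 134700001 (2.72 ± 2.48), 134200001 (2.28 ± 1.78) and 135200001 (2.23 ± 1.18), the last positive in 24 cells. The lowest were 134400001 (0.0560 ± 0.285), 134500001 (1.18 ± 1.03) and 134600001 (1.24 ± 1.13). The bin at 134700001 had an expectation of 0.484 times the median.

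The table names no genes, so values cannot be given per gene. In RefSeq order (GRCh38.p14), named protein-coding genes before BCR are GNAZ, a G protein alpha subunit, and RAB36, a small GTPase, and RSPH14 overlaps the start of BCR. After BCR lies IGLL1, part of the surrogate light chain of precursor B cells. ABL1 is preceded by PRDM12, a zinc finger protein, and EXOSC2, a subunit of the RNA exosome, and followed by QRFP, FIBCD1 and LAMC3, a laminin chain. The translocation thus leaves GNAZ and RAB36 before the joint and LAMC3 after it on 22:9, and EXOSC2 before the joint and IGLL1 after it on 9:22.

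Whether stretches vary together from cell to cell was described by the Pearson correlation of the side levels over the 26 cells. Within a cell, the sides share library, depth and cell mean. The sides joined on 22:9 had r = 0.51 and those joined on 9:22 r = 0.19. The sides that the translocation put on different chromosomes had r = 0.37 for chromosome 22 and r = 0.32 for chromosome 9. Adjacent blocks of 2 Mb elsewhere had a median of 0.35 over 1241 pairs, with the middle of the distribution from 0.12 to 0.55 (quartiles), and blocks on different chromosomes had a median of -0.018, with 5% to 95% of pairs from -0.47 to 0.52. The 5% and 95% points of adjacent blocks were -0.19 and 0.79, and all 4 Pearson values lie within both ranges, that of 22:9 just below the upper end of the range for different chromosomes. By Spearman correlation the sides joined on 22:9 had 0.45 (0.38 without cell 22), above the 95% point of 0.37 for blocks on different chromosomes and below that of 0.60 for adjacent blocks, and the other 3 pairs had 0.23 to 0.27, within both ranges. Without cell 22 all 4 Pearson values were lower, at 0.28 for the sides joined on 22:9, 0.096 for those joined on 9:22, 0.18 for the split sides of chromosome 22 and 0.23 for those of chromosome 9.

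The bins elsewhere whose levels followed the junction bins most closely were found among 8307 bins with a value in at least 20 cells and an expectation of at least 0.5 times the median, by Spearman correlation over 26 cells. For the junction bin of 22:9 they were chromosome 16 at 25000001 to 25100000 (a coefficient of 0.75), chromosome 19 at 10700001 to 10800000 (0.75) and chromosome 12 at 104200001 to 104300000 (0.74), where the median bin had 0.051. For that of 9:22 they were chromosome 18 at 76200001 to 76300000 (0.71), chromosome 20 at 45300001 to 45400000 (0.70) and chromosome 1 at 169600001 to 169700000 (0.65), where the median was -0.044. They are the highest of many values from sparse counts.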

How the data were processed

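Single-cell DamID was deposited as 1 table of 26 cells. Per the submitters' processing notes, the tools were cutadapt and Bowtie2 (2.1.0), with hg19 as build. The authors deposited a linear ratio of observed over expected signal per 100 kb bin and cell, as read from the table's name and values. How counts, masked bins and the expectation were made the sources used here do not say. Each column was matched to a sample by its number.

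Whole counts were recovered from the ratios, as the smallest that fit each bin (largest distance from a whole number 2.56e-13, tolerance 0.001). Bins with no value (3792) or 0 in all cells (253) were left out. The named bins are the junction bins, their neighbours and the 3 highest and 3 lowest bins of each side. The bins, definitions and alternatives were chosen with earlier results of these data known. No test between groups was made, since there is 1 group from 1 clone. The hg19 lengths of chromosomes 9 and 22 came from general knowledge. The recovery of counts was tested on simulated data. Scripts ran in Python 3.11.15 with scipy 1.17.1, numpy 2.4.6, matplotlib 3.10.9 and pandas 2.3.3.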

Additional observations from a re-analysis of the deposited data

How the results depend on the processing

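Over 197 recomputed values, 173 kept their sign and stayed within 1 SD between cells (levels and log2 ratios), within 1.5 times (counts of bins), within 10 percentage points (percentiles of spread) or within 1 standard error of Fisher's z (correlations). Of 80 recomputed levels 78 stayed within 1 SD. Both tallies include values that a setting could not change, and these count as kept. Examples are the level of the bin before when another bin was taken as junction bin, and the percentiles of spread without bins of low expectation. The junction bin of 22:9 depended on which bin is meant: with the bin before it the level was 4.54 and the log2 ratio over the flanks 1.56, while on 9:22 the bin after it gave -0.18. The flanks were not redrawn for these 2 ratios, so they still held the tested bin and left out the junction bin. The percentile of the junction bin's spread among bins on 22:9 was 77.7 with the bin before, 37.3 with the bin after and 12.3 by the coefficient of variation. On 9:22 it was 93.8, 29.0 and 11.1, and 50.6 with thinned cells. The log2 ratio of the chromosome 22 side over the chromosome 9 side of 22:9 turned positive without bins of low expectation (0.056), after division by the derivative's mean (0.00070) and with 0.5 Mb flanks (0.075), and the chromosome 22 side stood at 1.16 after that division. With positive set at a ratio of 0.5 or more, 37 window bins passed 80% of cells (17.8% of all used bins did), and at 2 or more 3 did (0.460%). Bins positive in at most 20% numbered 20 at 2 or more (75.1% of all used bins) and 0 without bins of low expectation (32.7%). This 0 rests on expectations that are lower bounds for the 2 bins dropped from the count. The correlation of sides joined on 22:9 was 0.28 without cell 22, 0.20 with 1 Mb flanks and 0.67 on log2 values with 0.1 added. Those of the sides joined on 9:22 (-0.022) and of the split chromosome 22 sides (-0.23) turned negative with 1 Mb flanks, the split sides also without the 6 cells of lowest coverage (-0.15). The cause was not tested. The bin after as junction bin, and leaving out the bins next to it, were added after the data were seen. No paired analysis was possible because all cells belong to 1 group, so no groups could be paired; bins and sides were compared within each cell. Depth limits single bins to a few counts per cell.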
